A study of Rattus norvegicus with 26 samples.

Results

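Genes of the complement system were followed in the hippocampus of aging rats that differed in the vitamin D3 of their diet. They are C1qa, C1qb, C1qc, C1s, C3, C8g and Cd59. They were chosen by their role in complement and with the measured difference of C8g between the high and control diets known from these arrays, and they make up 7 of the 14506 genes that have a probe set with a single gene symbol. Each gene is represented by the probe set of that symbol with the highest mean over all arrays, without an intensity filter, and each of the 7 has 1 such probe set. Cd59 was matched through a synonym and is written Cd59b, as in the array annotation and the RefSeq gene table.

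All rats were male Fisher 344 animals aged 18 months, kept in pairs, and each gave 1 array of total hippocampal RNA. The low vitamin D diet held 100 IU of vitamin D3 per kg (8 rats), the control diet 1000 IU per kg (9 rats) and the high vitamin D diet 10000 IU per kg (9 rats), all in the same purified base diet. The 26 rats came from 14 cages, of which 12 gave both rats. Only 1 strain and 1 sex were studied, and the tissue was taken whole, so the values mix all of its cell types.

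Complement is a cascade of proteins that marks particles and cells for removal. In the classical pathway C1q, which is built from A, B and C chains encoded by C1qa, C1qb and C1qc, binds its target, and the attached proteases C1r and C1s start the cleavage of later components. All pathways meet at C3, whose fragments tag surfaces for phagocytes, and the terminal components, among them C8 with its gamma chain from C8g, form a pore that CD59 on host cells blocks. In the brain C1q is made mainly by microglia, and in mice C1q and C3 take part in the removal of synapses by these cells.

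The 3 C1q genes are direct neighbours in the RefSeq gene table, in the order C1qb, C1qc and C1qa on chromosome 5. The sequences of the 250 bases before the start of C1qa, C1qb and C3 are shown because the levels of these genes were high together in 1 rat, as given further on. C1qc was high in the same rat, but no promoter sequence was available for it. They are from RefSeq, build GRCr8, and all lie on the minus strand, at chr5:154419934-154420183 for C1qa, chr5:154407828-154408077 for C1qb and chr9:2201340-2201589 for C3. They are written 5′ to 3′ on the strand of the gene, and capitals mark every match to the 6 motifs searched.
C1qa: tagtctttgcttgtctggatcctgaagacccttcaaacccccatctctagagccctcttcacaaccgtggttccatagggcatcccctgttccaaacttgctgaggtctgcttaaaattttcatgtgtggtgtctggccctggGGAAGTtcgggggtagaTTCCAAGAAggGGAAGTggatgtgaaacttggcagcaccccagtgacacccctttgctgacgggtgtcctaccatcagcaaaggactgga
C1qb: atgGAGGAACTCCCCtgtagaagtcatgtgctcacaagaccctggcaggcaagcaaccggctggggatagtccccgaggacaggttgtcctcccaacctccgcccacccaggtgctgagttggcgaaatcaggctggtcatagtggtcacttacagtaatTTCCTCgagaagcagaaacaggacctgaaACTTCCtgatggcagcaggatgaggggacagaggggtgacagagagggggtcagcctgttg
C3: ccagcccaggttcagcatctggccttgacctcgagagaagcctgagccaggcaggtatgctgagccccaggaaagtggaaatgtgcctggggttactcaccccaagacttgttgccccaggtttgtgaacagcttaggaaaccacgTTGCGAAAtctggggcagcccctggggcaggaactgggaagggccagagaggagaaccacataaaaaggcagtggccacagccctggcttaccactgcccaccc

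The motifs were chosen with these sequences in view and were searched on both strands: GAGGAA and GGAAGT, short forms of the site of PU.1 and other ETS factors, TTGCNNAA, a form of the C/EBP site, TTCNNNGAA, a form of the STAT site, and the NF-kappaB consensus and the VDR DR3 element of the vitamin D receptor by name. GGAAGT was present in both C1q promoters shown, with 2 matches in C1qa and 1 in C1qb, and 19.2% of 33469 promoters of the same length hold it. GAGGAA had 2 matches in C1qb and 0 in C1qa, against 23.3% of promoters with at least 1. In C1qb the first GAGGAA and the NF-kappaB match overlap, so they read as 1 run of capitals. TTCNNNGAA matched once in C1qa, where it reads the same on both strands, against 7.67% of promoters, and the NF-kappaB consensus matched once in C1qb, against 6.33%. C3 held 1 match to TTGCNNAA, which 9.22% of promoters hold. The VDR DR3 element had 0 matches in these windows and is present in 0.0926% of promoters. A match describes letters only and shows no binding.

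Over all arrays the mean log2 intensity was 9.59 for C1qa, 9.10 for C1qb, 9.01 for C1qc, 9.83 for C3, 9.15 for C8g and 12.35 for Cd59b, and 6.25 for C1s. These 6 genes other than C1s lay above 6.94, the median of all probe sets, and C1s lay below it. Intensities of different probe sets are not compared with each other. All 8 neuronal markers and all 12 astrocyte markers measured were above the same median, against 1 of 12 markers of the choroid plexus, 1 of 8 of blood-derived and border macrophages and 0 of 7 of blood cells. Of the microglial markers 15 of 19 were above it. The median of each array was from 6.92 to 6.96, and precision depends on how many arrays there are. One rat stood apart in several complement genes, low-diet rat 5, and results that rest on it are given with and without it. Its array weight of 0.889 lay inside the range of 0.588 to 1.5 over all arrays.

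C1q, the recognition part of the classical pathway, had close levels on the 3 diets apart from 1 rat. C1qa ranged from 9.37 to 10.62 on low (median 9.57), from 9.47 to 9.70 on control (median 9.54) and from 9.36 to 9.72 on high (median 9.60). The 3 ranges overlapped, and the value of 10.62 was that of low-diet rat 5. C1qb ranged from 8.73 to 10.04 on low (median 9.07), from 9.01 to 9.23 on control (median 9.08) and from 8.85 to 9.23 on high (median 9.04). C1qc ranged from 8.71 to 10.03 on low (median 9.02), from 8.77 to 9.09 on control (median 8.95) and from 8.83 to 9.18 on high (median 8.99). In each of these genes rat 5 alone set the top of the low group.

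Between the high and low diets C1qa differed by -0.068 log2 (95% interval -0.28 to 0.15), C1qb by -0.093 (-0.30 to 0.11) and C1qc by -0.088 (-0.31 to 0.13). These differences turned to +0.073, +0.035 and +0.047 without low-diet rat 5, so their sign rested on 1 animal. Between high and control C1qa differed by +0.0063 (-0.20 to 0.22), C1qb by -0.058 (-0.26 to 0.14) and C1qc by +0.054 (-0.16 to 0.27). Low-diet rat 5 is on neither of these diets but widens the spread that the fit shares over the diets. Without it these differences were the same, with SE of 0.045, 0.051 and 0.054, against 0.103, 0.099 and 0.104 with it. Between low and control the differences were +0.074 for C1qa, +0.035 for C1qb and +0.14 for C1qc, and without rat 5 they were -0.066, -0.093 and +0.0075. In limma the adjusted p of these 3 genes was at least 0.958 in each of the 3 contrasts, so no difference by diet was detectable in them. In a bulk sample fewer cells of a type and less RNA per cell cannot be told apart.

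C1s, the protease that follows C1q, ranged from 6.09 to 6.50 on low (median 6.21), from 6.03 to 6.45 on control (median 6.21) and from 6.02 to 6.41 on high (median 6.24). The groups overlapped almost fully. The difference was -0.017 log2 between high and low (95% interval -0.14 to 0.10), -0.014 between high and control (-0.13 to 0.10) and +0.0032 between low and control (-0.12 to 0.12).

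C3, the component at which the pathways meet, ranged from 9.55 to 10.63 on low (median 9.70), from 9.53 to 9.95 on control (median 9.76) and from 9.60 to 10.11 on high (median 9.88). The highest value was again that of low-diet rat 5. On low, 3 rats exceeded all control rats (5, 7 and 8), and on high also 3 (18, 23 and 24). The difference was +0.031 log2 between high and low (95% interval -0.18 to 0.24), +0.10 between high and control (-0.11 to 0.31) and +0.070 between low and control (-0.14 to 0.28). Without rat 5 the difference between high and low was +0.14 and that between low and control was -0.042. That between high and control was the same, with an SE of 0.070 against 0.101 with rat 5. None of these passed the threshold. Of the MHC class II markers 7 of 8 had higher means on high than on control and 8 of 8 on low than on control, with 0 called. The median difference between low and control over these markers was +0.25 log2, and without rat 5 it was +0.05, with 7 of 8 higher. The mean of the list on low was 7.86 ± 0.56 with rat 5 and 7.67 ± 0.19 without it (SD, n = 8 and 7). It was 7.60 ± 0.11 on control and 7.80 ± 0.32 on high (n = 9 each). Their part in the C3 differences was not tested.

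C8g, the gamma chain of the terminal component C8 and a lipocalin, was the member with the largest difference by diet. It had been named with its difference between high and control in view, so its values by diet are a description without a test. C8g ranged from 9.06 to 9.32 on low (median 9.16), from 9.08 to 9.33 on control (median 9.21) and from 8.81 to 9.14 on high (median 9.06). Its means were 9.18 ± 0.10, 9.21 ± 0.07 and 9.05 ± 0.11 in the same order (SD, n = 8, 9 and 9). All 9 high-diet rats lay below the medians of the low and of the control group, 4 of them below every low-diet rat and 5 below every control rat. The groups still overlapped at their edges.

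The difference in C8g was -0.16 log2 between high and control (SE 0.04), or 0.895-fold, and -0.13 between high and low (SE 0.04), or 0.915-fold. These comparisons share the high-diet rats. Between low and control it was -0.032 (SE 0.04). High-diet rat 25 was the lowest of all with 8.81. Without it the mean of the high group was 9.08 ± 0.06, and the differences were -0.13 against control and -0.098 against low. Vascular markers differed in the same direction: 11 of 11 endothelial markers had lower means on high than on control and on low. Of the mural cell markers 8 of 9 and 7 of 9 did, with 0 called. Of all genes 54.2% had a higher mean on high than on control and 52.6% than on low. Astrocyte markers were lower on high in 8 of 12 both times. Reactive astrocyte and acute phase genes were lower in 7 and 10 of 13, and choroid plexus markers in 10 and 2 of 12. Of 19 microglial markers 4 and 11 were lower. The endothelial mean ranged from 7.67 to 7.79 on high and from 7.70 to 7.87 on control. Over rats, after removal of the diet means, C8g had Pearson's r = 0.062 with the endothelial mean (permutation p = 0.76, adjusted p = 0.96). With the mean of the mural cell markers r was 0.302 (permutation p = 0.13, adjusted p = 0.47). Spearman's rho was 0.136 and 0.268 (permutation p = 0.5 and 0.19, adjusted p = 0.8 and 0.75). The part of vascular cells in the C8g differences between diets was not tested.

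Cd59b, which encodes a membrane inhibitor of the terminal pore, had the narrowest spread. It ranged from 12.28 to 12.43 on low (median 12.34), from 12.32 to 12.39 on control (median 12.35) and from 12.33 to 12.39 on high (median 12.37). The difference was +0.016 log2 between high and low (95% interval -0.027 to 0.059), +0.0068 between high and control (-0.035 to 0.049) and -0.0093 between low and control (-0.052 to 0.034). The SD pooled over the diets was 0.032 for Cd59b, against 0.24 for C1qa and 0.093 for C8g. The value for C1qa rests on low-diet rat 5. The SD of C1qa on low was 0.41 with that rat and 0.10 without it (n = 8 and 7). It was 0.09 on control and 0.11 on high.

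**Figure D1:**
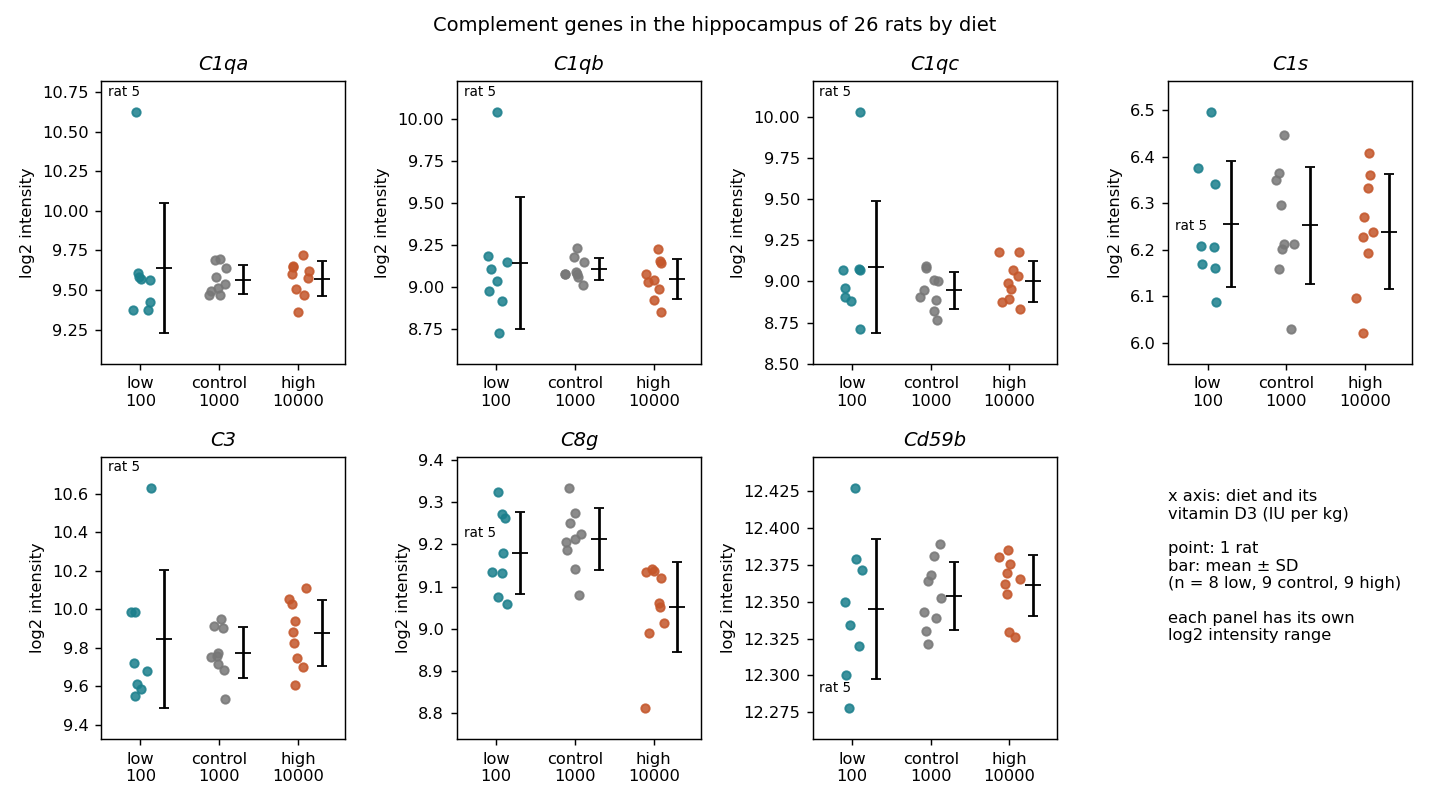
Log2 intensity of 7 complement genes in each rat by diet, from low to control to high, with the vitamin D3 of the diet in IU per kg below. Points are rats and bars give the mean ± SD (n = 8, 9 and 9). Low-diet rat 5 stands above all other rats in C1qa, C1qb, C1qc and C3, and the high-diet rats sit low in C8g.

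In limma 0 of the 7 genes were called at an adjusted p under 0.17 in the F-test over the diets or in any of the 3 contrasts, and 0% of all 14506 genes were called in each of these comparisons. At an unadjusted p under 0.05 there was 1 of 7 in the F-test (4.31% of all genes), 1 between high and low (5.83%, of which 3.33% higher and 2.5% lower), 1 between high and control (4.47%, of which 2.51% higher and 1.96% lower) and 0 between low and control (3.12%, of which 1.77% higher and 1.35% lower). The single gene was C8g each time, whose difference led to its choice, so nothing is read from these counts. The test without moderation also called 0. For the 6 other genes the adjusted p between high and control was at least 0.998, and the intervals give what differences the arrays still allow.

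**Figure D2:**
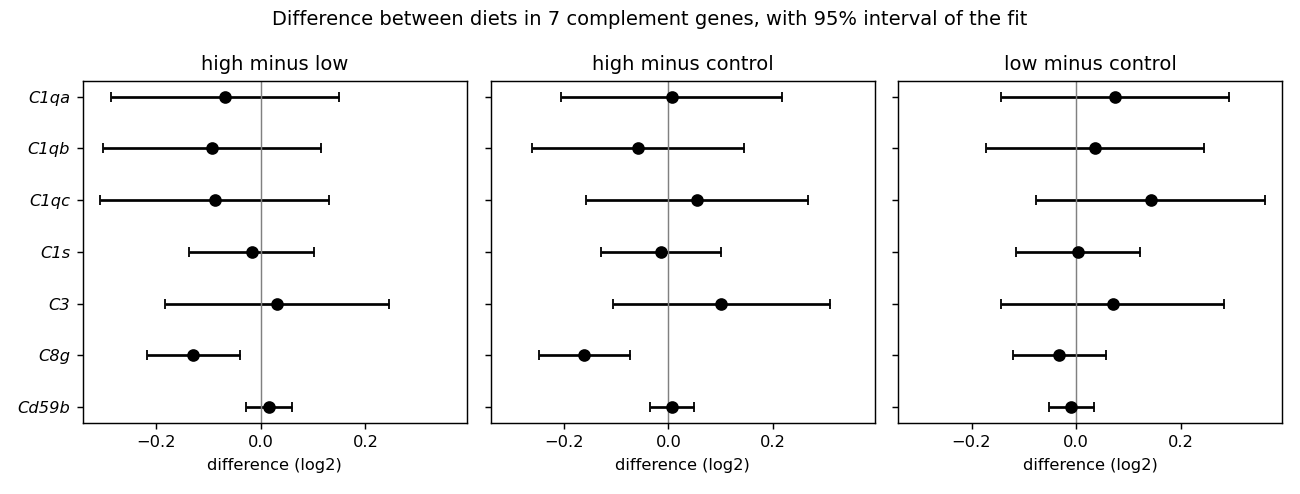
Differences between diets in log2 for 7 complement genes, with the 95% interval of the limma fit over 26 rats. In high minus low and high minus control the interval of C8g lies below 0, and the intervals of the other 6 genes span 0 in all 3 panels. The C8g intervals are a description, since the gene was named for this difference.

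The tail mark, which told cage mates apart, gave a comparison that played no part in the choice of the genes. The 13 marked rats averaged 9.62 ± 0.32 for C1qa and the 13 unmarked rats 9.56 ± 0.11 (SD). Low-diet rat 5 was a marked rat, and without it the marked mean was 9.53 ± 0.10 (n = 12). The difference between marked and unmarked rats then turned from positive to negative for C1qa (-0.035 log2), C1qb (-0.054), C1qc (-0.037) and C3 (-0.015). For C8g the means were 9.14 ± 0.13 in marked and 9.15 ± 0.11 in unmarked rats. C1s had 6.29 ± 0.10 in marked and 6.21 ± 0.14 in unmarked rats, a difference of +0.075 log2 (SE 0.05). In limma 0 of 7 genes were called (0% of all genes), and 0 of 7 had an unadjusted p under 0.05, against 4.69% of all genes (1.34% higher and 3.35% lower in marked rats).

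Low-diet rat 5 combined high levels of C1q and C3 with high levels of MHC class II genes and of some microglial genes. In this rat C1qa was 10.62, against 9.37 to 9.61 in the other 7 low-diet rats, C1qb was 10.04, against 8.73 to 9.18, and C1qc was 10.03, against 8.71 to 9.07. Against the median of those rats these are 2.09, 2.00 and 2.10 times higher intensities, and C3, at 10.63 against 9.55 to 9.99, was 1.93 times higher. All 4 were the highest of the 26 rats. Rat 5 was the highest of the 8 low-diet rats in 4 of the 7 genes, against 10.4% of all genes. It was also apart from the others, by a gap past Dixon's limit, in these 4, against 0.786% of all genes, while 7.67% of genes had some rat apart on low, 9.03% on control and 7.42% on high. By contrast C8g (9.18) and C1s (6.21) of rat 5 lay inside the range of the other low-diet rats, and Cd59b (12.28) was the lowest of the 8.

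The cage mate of this rat, low-diet rat 6, had 9.58 for C1qa, 9.18 for C1qb, 9.07 for C1qc and 9.55 for C3. These values lie within the range of the low-diet rats other than rat 5, with C3 at its lower end. Thus 2 rats of 1 cage on 1 diet were far apart. Over the 12 pairs of cage mates the median absolute difference was 0.14 log2 for C1qa, and this pair differed by 1.04.

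Among the markers, RT1-Da, an MHC class II alpha chain, was 9.76 in rat 5 and 6.43 to 6.96 in the other 7 low-diet rats, 8.97 times their median. Cd74, the invariant chain of MHC class II, was 12.22 against 9.33 to 10.62, and RT1-Ba and RT1-Bb, further class II chains, were 6.46 and 5.47 times the median. Of the MHC class II genes 7 of 8 were highest in rat 5 among all 26 rats. Of the microglial markers 14 of 19 were highest in rat 5, with a median of +0.35 log2, against 4.56% of all genes. Cd68, a lysosomal protein of phagocytes, was 2.67 times higher (7.58 against 5.93 to 6.29), while Cx3cr1, the fractalkine receptor of microglia, was 1.24 times higher (11.53 against 11.10 to 11.49). Tmem119, a marker of resident microglia, was 1.21 times higher in rat 5, at 9.07, which is inside the range of 8.59 to 9.12. Whether the number of microglia or their state plays a part in the C1q and C3 values was not tested.

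Markers of most other cell types did not stand out in this rat, apart from some reactive astrocyte and acute phase genes. Of the 12 astrocyte markers 0 were highest in rat 5 among the 8 low-diet rats, as were 0 of 11 endothelial, 0 of 7 blood cell and 0 of 8 border and blood-derived macrophage markers. Of the list of reactive astrocyte and acute phase genes 7 of 13 were highest in rat 5 among the low-diet rats, and of the choroid plexus markers 3 of 12, against 10.4% of all genes. The medians of these lists were +0.06 and +0.03 log2. In the first list Psmb9 (+0.64 log2), Cp (+0.49) and Gbp2 (+0.30) were the highest of the 26 rats. These are 3 of 13, against 4.56% of all genes. The array with the most genes far above its diet was not that of rat 5 but that of control rat 17, with 30 genes more than 1 log2 above the median of the other control rats. In rat 5, 18 genes of 14506 lay more than 1 log2 above the median of the other low-diet rats, among them 3 of the 7 members, 4 MHC class II genes and 3 microglial markers, and 0 genes lay more than 1 log2 below. Of the other complement genes, Itgam, a chain of the C3 fragment receptor CR3, was 1.78 times higher (7.04 against 6.09 to 6.50), Itgb2, its partner chain, 1.35 times and C3ar1, the receptor of C3a, 1.21 times. Each of these 3 was the highest of the 26 rats.

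**Figure D3:**
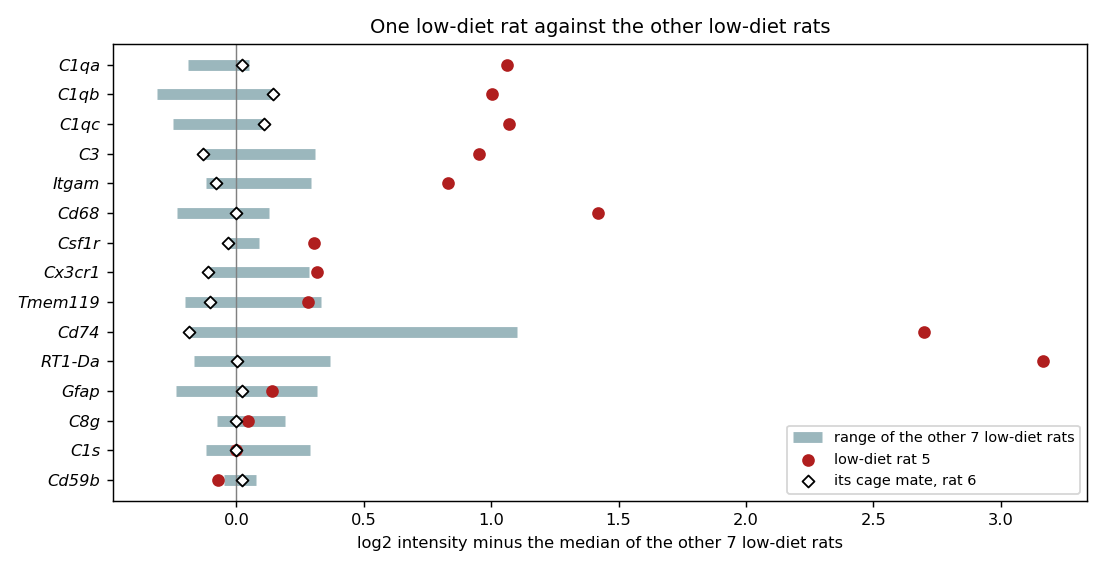
Log2 intensity in low-diet rat 5 and in its cage mate, rat 6, minus the median of the 7 low-diet rats other than rat 5, for complement genes and markers. The bar gives the range of those 7 rats. Rat 5 lies about 1 log2 to the right in C1qa, C1qb, C1qc and C3, and further in Cd74 and RT1-Da, while Gfap, C8g and C1s lie within the bars.

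The members were then compared over rats, after removal of the diet means, in 21 pairs. By Pearson's r 6 pairs had an adjusted p under 0.05, but without low-diet rat 5 the count was 1. That pair was C1qb and C1qc, with r = 0.934 over 26 rats (permutation p = 1e-05, the lowest that 100000 draws can reach, adjusted p = 0.00021) and Spearman's rho = 0.713 (permutation p = 9e-05, adjusted p = 0.0019). Its r was 0.696 without the 2 rats farthest from the median (permutation p = 0.00014, adjusted p = 0.0029), 0.734 without rat 5 (permutation p = 3e-05, adjusted p = 0.00063) and 0.961 between cage means (14 cages, permutation p = 2e-05, adjusted p = 0.00042). The cage means include rat 5, and the other settings take cage mates as independent. Cage mates differed by a median of 0.091 log2 in C1qb and 0.123 in C1qc. Other pairs of rats on the same diet differed by 0.117 and 0.153. Cage mates were thus somewhat more alike, and the permutation p values of those settings may be too small. No setting both left out rat 5 and used cage means.

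C1qa followed its neighbours less closely once rat 5 was left out. C1qa and C1qc had r = 0.878 (permutation p = 0.00013, adjusted p = 0.0014), rho = 0.580 (permutation p = 0.0022, adjusted p = 0.023) and r = 0.569 without the 2 farthest rats (permutation p = 0.0039, adjusted p = 0.030). Without rat 5 the r was 0.428 (permutation p = 0.034, adjusted p = 0.18). C1qa and C1qb had r = 0.838 (permutation p = 0.0007, adjusted p = 0.0049) but rho = 0.319 (permutation p = 0.11, adjusted p = 0.51), with r = 0.379 without the 2 farthest rats and 0.227 without rat 5. The relation of C1qa and C1qb therefore rests on rat 5.

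C3 and C1qa had r = 0.669 (permutation p = 0.0088, adjusted p = 0.034) with rho = 0.249 (permutation p = 0.22, adjusted p = 0.51), and r was 0.041 without the 2 farthest rats and -0.025 without rat 5. This relation rests on rat 5 as well. The negative relations of Cd59b with C1qb (r = -0.573, permutation p = 0.0054, adjusted p = 0.028) and with C1qc (r = -0.536, permutation p = 0.0097, adjusted p = 0.034) had rho = -0.225 and -0.298 (permutation p = 0.27 and 0.14, adjusted p = 0.51 for both). Without the 2 farthest rats their r was -0.056 and -0.029, and without rat 5 it was -0.380 and -0.296. C3 and Cd59b had r = -0.031 over the 26 rats (permutation p = 0.88, adjusted p = 0.89) and rho = 0.240 (permutation p = 0.24, adjusted p = 0.51), but r = 0.549 without the 2 farthest rats (permutation p = 0.0043, adjusted p = 0.030) and 0.533 without rat 5 (permutation p = 0.0059, adjusted p = 0.051). C8g and C1s had no pair with an adjusted p under 0.05 over the 26 rats. C1qb and C8g had r = -0.260 over the 26 rats (permutation p = 0.19, adjusted p = 0.36). Without rat 5 their r was -0.526 (permutation p = 0.0073, adjusted p = 0.051) and rho -0.416 (permutation p = 0.04, adjusted p = 0.28).

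**Figure D4:**
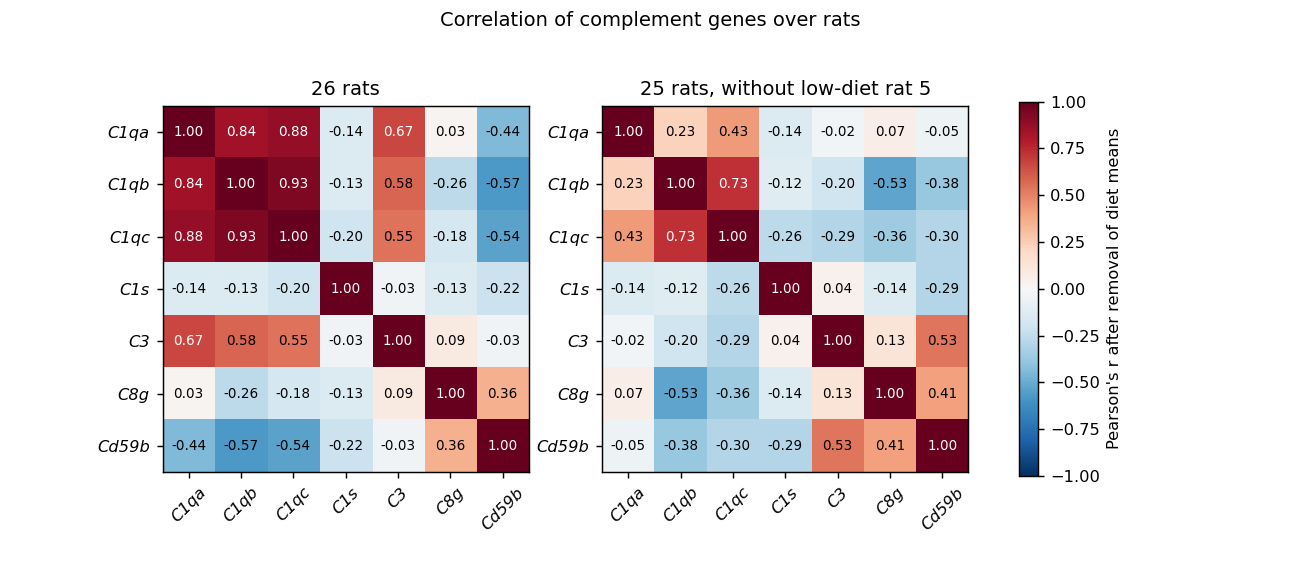
Pearson's r between complement genes over rats after removal of the diet means, with all 26 rats on the left and without low-diet rat 5 on the right. The block of C1qa, C1qb, C1qc and C3 on the left shrinks on the right to C1qb with C1qc, at 0.73.

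C3 varied with the MHC class II genes from rat to rat, also outside rat 5. Among 84 relations of a member with the mean of a marker list, C3 and the 8 MHC class II genes had r = 0.829 (permutation p = 1e-05, the smallest these permutations give, adjusted p = 0.00084) and rho = 0.780 (permutation p = 3e-05, adjusted p = 0.0025). Without rat 5 r was 0.586 (permutation p = 0.0016, adjusted p = 0.044) and rho 0.723 (permutation p = 3e-05, adjusted p = 0.0025). Without the 2 farthest rats r was 0.602 (permutation p = 0.0013, adjusted p = 0.055), and between the 14 cage means it was 0.754 (permutation p = 0.0013, adjusted p = 0.023). The cage means include rat 5, so they do not show a relation outside it. Between them C1qa, C1qc and C1qb had r = 0.825, 0.814 and 0.753 with the same list. Over rats without rat 5 their r was -0.257, -0.084 and 0.085. The mean of the MHC class II list ranged from 7.52 to 9.19 on low, from 7.45 to 7.80 on control and from 7.45 to 8.43 on high. High-diet rats 23 and 24 were high in both C3 (10.05 and 10.03) and Cd74 (10.48 and 10.53), whereas high-diet rat 25 had the highest Cd74 of its diet, at 11.19, with a C3 of 9.88, the median of its diet.

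C3 also varied with the mean of 19 microglial markers, with r = 0.834 (permutation p = 3e-05, adjusted p = 0.0013), rho = 0.599 (permutation p = 0.0014, adjusted p = 0.034) and r = 0.561 without the 2 farthest rats (permutation p = 0.0043, adjusted p = 0.091). Without rat 5 r was 0.567 (permutation p = 0.003, adjusted p = 0.062). C1qa had r = 0.821 with the same list (permutation p = 0.0026, adjusted p = 0.044), but rho = 0.432 (permutation p = 0.029, adjusted p = 0.41) and r = 0.211 without the 2 farthest rats and 0.036 without rat 5, so that relation rests on rat 5. C1qb and C1qc had r = 0.691 and 0.743 with the microglial list (permutation p = 0.024 and 0.01, adjusted p = 0.13 and 0.11). Without rat 5 their r was -0.392 and -0.141 (permutation p = 0.053 and 0.5, adjusted p = 0.63 and 0.95). The mean of the microglial list ranged from 8.70 to 9.22 on low, from 8.72 to 8.82 on control and from 8.75 to 8.90 on high.

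C1s ran against 2 lists, with r = -0.644 for the 12 markers of meninges and fibroblasts (permutation p = 0.00043, adjusted p = 0.0090) and r = -0.648 for the 8 markers of blood-derived and border macrophages (permutation p = 0.00042, adjusted p = 0.0090). The rho values were -0.622 (permutation p = 0.0009, adjusted p = 0.034) and -0.608 (permutation p = 0.0016, adjusted p = 0.034), and r was -0.574 (permutation p = 0.0029, adjusted p = 0.080) and -0.638 (permutation p = 0.00081, adjusted p = 0.055) without the 2 farthest rats. In that setting 0 of the 84 relations had an adjusted p under 0.05, against 5 over the 26 rats. Between the 14 cage means the r values were -0.620 (permutation p = 0.019, adjusted p = 0.14) and -0.440 (permutation p = 0.12, adjusted p = 0.49). C1s itself and most genes of both lists, all but 4 of 12 and all but 1 of 8, lay below the median of all probe sets, and the part of low intensity in these relations was not tested.

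**Figure D5:**
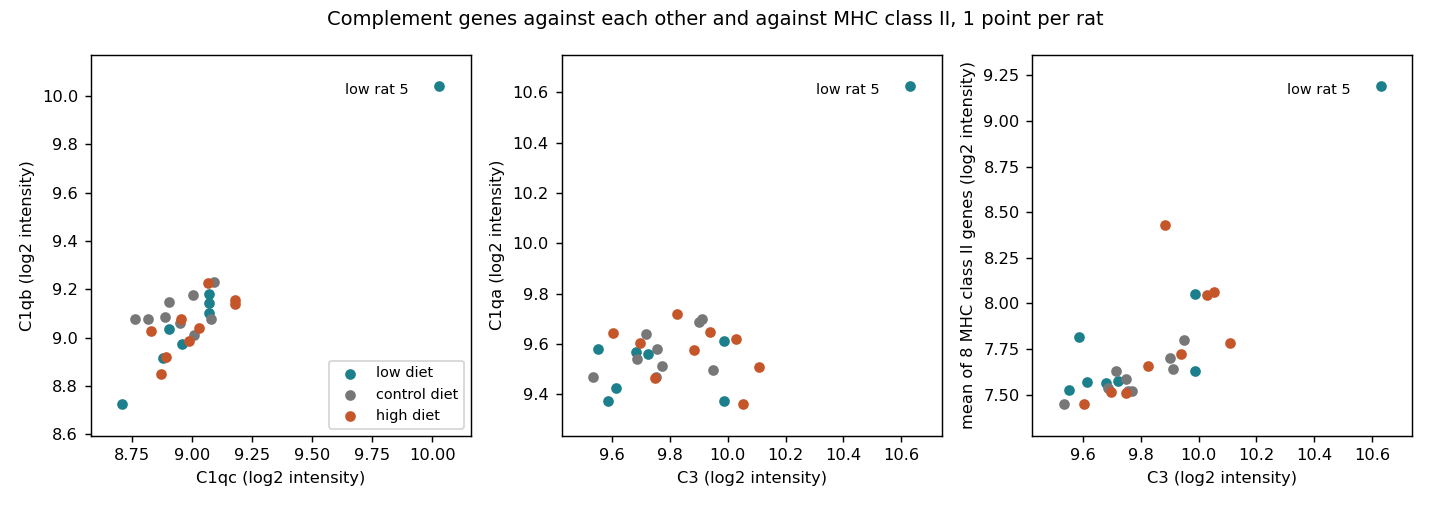
Log2 intensity of C1qb against C1qc, of C1qa against C3, and of the mean of 8 MHC class II genes against C3, with 1 point per rat coloured by diet. Low-diet rat 5 stands at the upper right of all 3 panels, and among the remaining 25 rats C1qb still rises with C1qc and the MHC class II mean with C3.

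Among the 8485 genes whose mean was not below that median, those most like each member over the 26 rats were found by Pearson's r after removal of the diet means, as a description. For C1qa they were C1qc (0.88), Lgals3bp (0.85), Ifi47 (0.85), C1qb (0.84) and Ly86 (0.84), and for C1qb they were C1qc (0.93), Alox5ap (0.87), C1qa (0.84), Lgals3bp (0.78) and Pim1 (0.77). For C1qc they were C1qb (0.93), C1qa (0.88), Lgals3bp (0.84), Alox5ap (0.82) and Ly86 (0.80). Without rat 5, Alox5ap, which encodes the activator of 5-lipoxygenase, had r = 0.73 with C1qb and 0.59 with C1qc, whereas Lgals3bp, a secreted glycoprotein, had 0.30 with C1qa, 0.11 with C1qb and 0.37 with C1qc. Ifi47 and Ly86 then had 0.22 and 0.17 with C1qa, Pim1 had 0.12 with C1qb, and Ly86 had 0.14 with C1qc. C1qc, first for C1qa over the 26 rats, was at place 368 without rat 5. The gene most like C1qb was then Stard7 (0.78), with C1qc at place 5 and Alox5ap at place 8. For C1qc it was Snd1 (0.76), with C1qb at place 5 and Alox5ap at place 141.

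For C3 the genes were Ctsz, a lysosomal cathepsin (0.83), Fcgr2b, the inhibitory Fc receptor (0.83), Csf1r, the receptor on which microglia depend (0.81), Cd74 (0.81) and RT1-Bb (0.81). Their r without rat 5 was 0.63, 0.58, 0.55, 0.61 and 0.53 in the same order. C8g was most like Cd2ap (0.66), Kmt5a (0.64), Kif13a (0.63), Pxdc1 (0.63) and Gon4l (0.61). C1s was most like Lnpep (0.68), Tiprl, Ascc2, Fut11 and Atm, and Cd59b was most like Nqo2 (0.80), Tspan12 (0.76), Asph, Gng13 and Rpp38. For C8g, C1s and Cd59b the first of these genes kept its place without rat 5.

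Of 66 other genes of complement and of C1q-like proteins that were listed, 56 had a probe set with a single symbol. C4a, C4b and Cfb were not analysed here. In limma 0 of the 56 were called in the F-test or in any contrast, as for all genes. At an unadjusted p under 0.05 there was 1 in the F-test (4.31% of all genes), 1 between high and low (5.83%), 1 between high and control (4.47%) and 2 between low and control (3.12%), all with a higher mean in the first-named diet of the contrast. The test without moderation also called 0.

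Between high and low 32 of the 56 had a higher mean on high (57.1%, against 52.6% of all genes), with a median of +0.0093 log2 against +0.0024 over all genes. In the classical and lectin pathway 8 of 10 were higher, in the terminal pathway 2 of 5, among the regulators 8 of 16 and among the receptors 4 of 9. Cbln1, a C1q-like synaptic organiser, was 6.00 ± 0.15 on high and 5.89 ± 0.08 on low (SD, n = 9 and 8), and Thbd, which encodes thrombomodulin, differed by +0.061 log2. Colec12, a scavenger receptor with a collectin domain, differed by -0.092 and Cpn1, the catalytic chain of carboxypeptidase N, which trims C3a and C5a, by -0.051. Without low-diet rat 5 the difference in Colec12 was -0.064. The means of Cbln1, Thbd, Colec12 and Cpn1 lay below the median of all probe sets on each diet.

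Between high and control 34 of the 56 had a higher mean on high (60.7%, against 54.2% of all genes), with a median of +0.0070 log2 against +0.0038. C1qtnf1, a C1q-like secreted protein, differed by +0.12 log2 (SE 0.05). Fcnb, a ficolin of the lectin pathway, differed by +0.25 (SE 0.14), with 1 high-diet rat, rat 24, at 7.46 and a median of 6.13 on high against 6.03 on control. Cr1l, a regulator of C3 convertases in rodents, differed by -0.065 and Vtn, vitronectin, an inhibitor of the terminal complex, by -0.083. The means of C1qtnf1 and Fcnb lay below the median of all probe sets on each diet, and those of Cr1l and Vtn above it. Mural cell markers, given above with C8g, had lower means on high as well.

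Between low and control 32 of the 56 had a higher mean on low (57.1%, against 50.9% of all genes), with a median of +0.0034 log2 against +0.00076. C3ar1 was 7.64 ± 0.15 on low and 7.54 ± 0.07 on control (SD, n = 8 and 9). The difference in C3ar1 was +0.11 log2, and without rat 5 it was +0.072, with a low-diet mean of 7.61 ± 0.12 (n = 7). Cbln3 differed by +0.076. Cd46, a cofactor for the cleavage of C3b, differed by -0.10 and Fcna, a further ficolin, by -0.084. The means of Cbln3 and Fcna lay below the median of all probe sets on each diet, and those of C3ar1 and Cd46 above it. C1r, the partner protease of C1s, differed by +0.00040 between high and low, -0.031 between high and control and -0.031 between low and control. Serping1, the C1 inhibitor, differed by -0.069, -0.072 and -0.0031 in the same order (SE 0.09 each). Clu, clusterin, differed by -0.019, -0.010 and +0.0085.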

How the data were processed

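Values are the log2 probe set intensities deposited by the authors for 26 Affymetrix Rat Gene 1.0 ST arrays. Partek 6.6 and GCRMA are named, without a stated step, per the submitters' processing notes. There are 29214 probe sets, 0 missing values and values between 4.28 and 15.4, and no further normalization was applied. Of the probe sets 15310 have 1 gene symbol, 323 several and 13581 none. The precision is limited by the number of arrays.

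Genes were tested with limma 3.58.1 (R 4.3.3), with diet as a factor over all 26 arrays and no intensity filter. All p values are 2-sided, adjusted by the Benjamini-Hochberg method over 14506 genes and called under 0.17, the stricter rate named in the series text. The tail mark was tested with diet in the model. Correlations used permutation tests with 100000 resamples in Python 3.11.15 (numpy 2.4.6), adjusted over 21 pairs and over 84 relations with 12 marker lists, and took cage mates as independent. The consensus correlation of cage mates over all genes was 0.0787. The limma and correlation procedures were tested on simulated data.

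The members, the gene lists and the tests were chosen with earlier results of these data known. The genes named were the 7 members, 10 fixed complement genes where measured, the 2 genes per direction with the smallest p in each contrast, and the 5 genes most like each member, as well as listed markers. Symbols were checked against the RefSeq table of GRCr8. The labels name no separate batches. Alternatives are given in the closing part.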

Additional observations from a re-analysis of the deposited data

Results flagged for a closer look

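Within a diet, a rat was noted where its gap to the nearest other rat, divided by the range of the diet, was past Dixon's 95% limit, which chance passes in about 1 of 20 groups. Of the 21 combinations of a member and a diet 5 were past it, and over all genes 7.67% were on low, 9.03% on control and 7.42% on high. Low-diet rat 5 was apart in C1qa (gap over range 0.809), C1qc (0.726), C1qb (0.653) and C3 (0.595), all as the highest rat, which held for 0.786% of all genes. These 4 genes are not independent of each other, and the rule for the members asked for such rats, so the flags are a description.

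High-diet rat 25 was apart in C8g as the lowest rat, with a gap over range of 0.545. Among the 17 other complement genes named, 4 of 51 combinations were past the limit. Low-diet rat 5 was apart in Itgam (0.567) and in Fcnb (0.692). High-diet rat 24 was apart in Fcnb (0.722), as the highest rat, and in Colec12 (0.529), as the lowest.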

How the results depend on the processing

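In each of 41 alternative settings, with 26 that leave out 1 rat, 0 of the 7 members and 0 of the 56 other complement genes were called in any comparison run. They varied the filter on intensity, the use of single probe sets, scaling (quantile or centring), the cage block, array weights, the variance prior and moderation, the tail mark, the removal of values over 2 SD, the threshold (0.05 and 0.31), the diets in the fit and a dose trend. Among the members other than C8g the smallest adjusted p in limma was 0.594, for C3 between high and low with values over 2 SD removed.

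Removal of values over 2 SD takes out low-diet rat 5 in C1qa, C1qb, C1qc and C3. It turned high minus low to +0.073 for C1qa, +0.035 for C1qb and +0.047 for C1qc, and low minus control to -0.066 for C1qa, -0.093 for C1qb and -0.042 for C3. Centring turned low minus control of Cd59b to +0.0013, and the tail mark that of C1s to -0.00092. With each rat left out in turn, high minus low ranged from -0.11 to +0.073 for C1qa, from -0.15 to +0.035 for C1qb, from -0.14 to +0.047 for C1qc, from -0.011 to +0.14 for C3 and from -0.041 to +0.017 for C1s. High minus control ranged from -0.012 to +0.033 for C1qa and from -0.042 to +0.013 for C1s. Low minus control ranged from -0.066 to +0.11 for C1qa, from -0.093 to +0.094 for C1qb, from -0.042 to +0.11 for C3, from -0.031 to +0.027 for C1s and from -0.021 to +0.00037 for Cd59b.

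Of the 21 member pairs 6 had an adjusted p under 0.05. The count was 2 by Spearman's rho, 3 without the 2 farthest rats, of which C3 with Cd59b was not among the 6, and 1 without low-diet rat 5, a setting chosen after its values were seen. It was 4 over cage means, 4 after centring and 6 with the diet means kept. Diets could not be paired, since cage mates ate the same diet. The tail mark, paired within the 12 cages that gave both rats (cage as a replicate block, added after seeing the data), gave 0 members called in limma, and 0 of 7 had an unadjusted p under 0.05.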
